A study of Mus musculus with 4 samples.

Results

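The USP genes encode ubiquitin-specific proteases, the family of cysteine proteases that takes ubiquitin off other proteins. They were chosen by the gene name that the array carries: every probe whose name is Usp followed by a number, leaving out the names that begin with Usp17, a cluster of near-identical copies, and Usp18, which acts on the ubiquitin-like protein ISG15. The array held 73 such probes of 50 genes. A probe was kept when, in 1 group or in both, the scanner software marked it well above background on each of the 2 arrays, and 55 probes of 40 genes passed, among 17554 genes tested in all. The choice by name also takes in Usp6nl, which encodes a GTPase-activating protein that switches off the small GTPase Rab5 and is not a deubiquitinase. It takes in Usp39, Usp53 and Usp54 too, whose products have been classed as lacking protease activity. Their activity was not tested here.

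RNA came from 32D-EpoR cells, a line derived from the mouse myeloid progenitor line 32D, which needs interleukin-3 to live, to which a receptor for erythropoietin had been added. Erythropoietin (Epo) is a kidney hormone that keeps red cell precursors alive and dividing. The cells were moved from WEHI medium, a conditioned medium that keeps them growing, into RPMI with 10% FBS, and then either received Epo at 10 U/ml (2 arrays, with Epo) or received none (2 arrays, without Epo). All groups share the introduced receptor and the withdrawal, the experiments were done on cells of different passages, and neither the length of the Epo exposure nor whether the line is a clone is given in the sources used here.

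Ubiquitin is attached to proteins in chains that mark them for the proteasome, for sorting from the cell surface or for a change in activity, and deubiquitinases reverse this. USP enzymes are the largest deubiquitinase family and differ in where they act: on histones in chromatin, on DNA repair factors and p53, on receptors in endosomes, on mitochondria, or at the proteasome. Several need a partner protein for full activity, such as the WD-repeat proteins Wdr48 and Wdr20 for Usp12 and Usp46. In blood cells, the amount of a cytokine receptor at the surface and the removal of signalling proteins both depend on ubiquitin.

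Usp31 and Usp36 each had 3 kept probes, and the first 30 of the 60 bases of each probe are printed because the agreement of separate probes bears on the largest changes. In the build mm9, which the files use, the Usp31 probes lie on the minus strand of chromosome 7 starting at 128785799, 128785987 and 128791817, and the Usp36 probes lie on the minus strand of chromosome 11 starting at 118121173, 118126156 and 118146245. Whether these stretches are coding or untranslated was not analysed here.
Usp31 at 128785799: caccattagtgagctctgtataagtttaat
Usp31 at 128785987: actgtgcctctcaccactggttaaaattga
Usp31 at 128791817: aacttgtctctaaggaccctgctaaacatt
Usp36 at 118121173: aaagtagtcattttgttgggtcaaatcaaa
Usp36 at 118126156: tcccaagcaggaaggccaatttcaggacca
Usp36 at 118146245: aacgtgttttccgagttggcgcagggctgc

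With Epo, 14 of the 40 tested USP genes rose, none of the 40 fell, and 26 were not called (limma, adjusted p under 0.05). Over all genes tested, 13.1% were called higher and 14.3% lower, against 35% and 0% of the USP genes. The median log2 change of the 40 was 0.21, and that of all genes was -0.06. At an unadjusted p under 0.05, 15 USP genes were higher and 4 lower (37.5% and 10.0%), against 19.2% and 23.5% of all genes. The changes ran from -0.77 for Usp37 to 1.59 for Usp31, and 6 genes were at least 2-fold higher (15%, against 6.20% of all genes) and 0 at least 2-fold lower (against 6.20%). With only 2 arrays a group, separate groups are common: they did not overlap for 22 USP genes that were higher and 7 that were lower (55.0% and 17.5%), against 30.4% and 38.4% of all genes, and the 14 that rose were among the 22. These calls rest on 2 arrays a group: the number of USP genes called higher was 0 without replicate 1 with Epo, 4 without replicate 2 with Epo, 7 without replicate 1 without Epo and 4 without replicate 2 without Epo. These are 0%, 10%, 17.5% and 10% of the 40, against 2.36%, 6.22%, 8.61% and 6.19% of all genes, so without replicate 1 with Epo the USP share lay below that of all genes. The absence of falls depended on the processing: scaling on the probes detected on all arrays called Usp37, Usp21, Usp19 and Usp2 lower (limma adjusted p 0.0351, 0.0408, 0.0465 and 0.0476), and normexp background correction called Usp37 and Usp21 lower (0.0204 and 0.0455). These are 10% and 5% of the USP genes, against 20.8% and 20.7% of all genes called lower in the same settings.

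**Figure D1:**
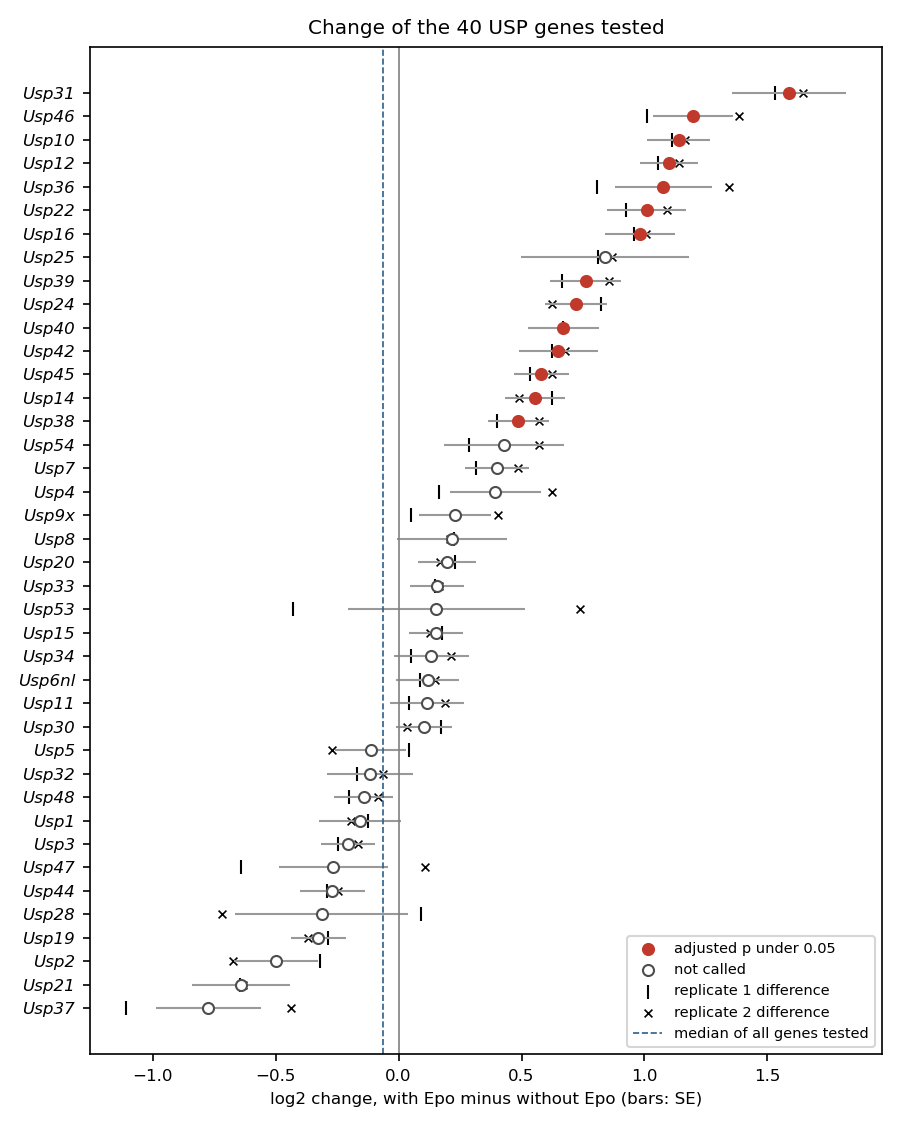
Log2 change with Epo minus without Epo of the 40 tested USP genes, with the SE as a bar and the differences within replicate 1 and replicate 2 as marks. The 14 filled points, from 0.49 for Usp38 to 1.59 for Usp31, passed the threshold, and no gene passed it on the lower side.

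The level of a gene is given below as the log2 of the scanner's processed signal after the arrays were scaled to a common 75th percentile, with the replicate 1 value first. Levels of different genes come from different probes and are not set against each other. Folds compare cells with Epo to cells without Epo.

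Among the 7 tested genes of enzymes that act on chromatin or histones, 4 rose and none fell. These are 57.1% and 0%, against 13.1% and 14.3% of all genes. In groups this small, the absence of falls describes these genes only. Usp46, a partner of Wdr48 whose nearest relative is Usp12, had log2 signals of 9.75 and 9.76 with Epo, against 8.74 and 8.37 without Epo, a 2.29-fold rise (log2 change 1.20 ± 0.16 SE, limma adjusted p 0.0122). Usp12 gave 12.45 and 12.57 with Epo, against 11.40 and 11.43 without Epo (2.14-fold, log2 change 1.099 ± 0.12 SE, adjusted p 0.00789). In both genes the arrays of a group lay far closer to each other than to those of the other group.

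Usp22 encodes the deubiquitinase of the SAGA coactivator complex, which acts on histone H2B. Its log2 signals were 7.92 and 7.77 with Epo, against 6.996 and 6.68 without Epo, a 2.01-fold rise (log2 change 1.01 ± 0.16 SE, adjusted p 0.0164). Usp16, which acts on ubiquitinated histone H2A, had 13.27 and 13.10 with Epo, against 12.31 and 12.09 without Epo (1.98-fold, log2 change 0.98 ± 0.14 SE, adjusted p 0.0139), and its second probe gave a change of 1.04. The other chromatin genes did not pass the threshold. Usp3 and Usp21, which also act on H2A, differed by -0.21 (adjusted p 0.228) and -0.64 (adjusted p 0.0783), and Usp44, a regulator of the spindle checkpoint that also acts on H2B, by -0.27 (adjusted p 0.194). The genes for the H2A enzymes thus gave values on both sides of 0, with Usp16 called higher.

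Of 10 tested genes tied to p53, DNA repair, the cell cycle or the nucleolus, 4 rose and none fell. These are 40% and 0%, against 13.1% and 14.3% of all genes. Usp10, a p53 deubiquitinase that binds the stress granule protein G3BP1, had log2 signals of 12.28 and 12.45 with Epo, against 11.17 and 11.28 without Epo (2.20-fold, log2 change 1.14 ± 0.13 SE, adjusted p 0.00879). Usp36, a nucleolar enzyme needed to make ribosomes, had 10.42 and 10.46 with Epo, against 9.61 and 9.11 without Epo, and rose 2.11-fold (log2 change 1.08 ± 0.20 SE, adjusted p 0.0229). The arrays with Epo differed little from each other for Usp36, and the spread came from those without Epo.

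Usp42, the closest relative of Usp36, had 11.36 and 11.14 with Epo, against 10.74 and 10.46 without Epo (1.57-fold, log2 change 0.65 ± 0.16 SE, adjusted p 0.0455). Usp45, a relative of Usp16, had 9.65 and 9.71 with Epo, against 9.11 and 9.08 without Epo (1.49-fold, log2 change 0.58 ± 0.11 SE, adjusted p 0.0256). Usp42 lay close to the threshold, and lost its call when the arrays were scaled on the probes detected on all arrays or by quantiles.

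The remaining 6 genes of that group were not called. Usp7, which acts on p53 and its ligase MDM2, had 13.30 and 13.26 with Epo, against 12.98 and 12.78 without Epo, with a change of 0.40 (adjusted p 0.0826). Usp1, which works with Wdr48 on FANCD2 and PCNA, differed by -0.16, Usp11 by 0.12 and Usp47, an enzyme of DNA polymerase beta, by -0.27. Usp28, known to stabilise MYC in human cells, had 9.58 and 8.58 with Epo, against 9.49 and 9.30 without Epo, so the groups overlapped and the change of -0.31 was smaller than its SE of 0.35. Usp37, which acts on cyclin A, had 6.13 and 6.26 with Epo, against 7.24 and 6.70 without Epo, the lowest change of the 40 at -0.77 (adjusted p 0.059), and the groups did not overlap.

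**Figure D2:**
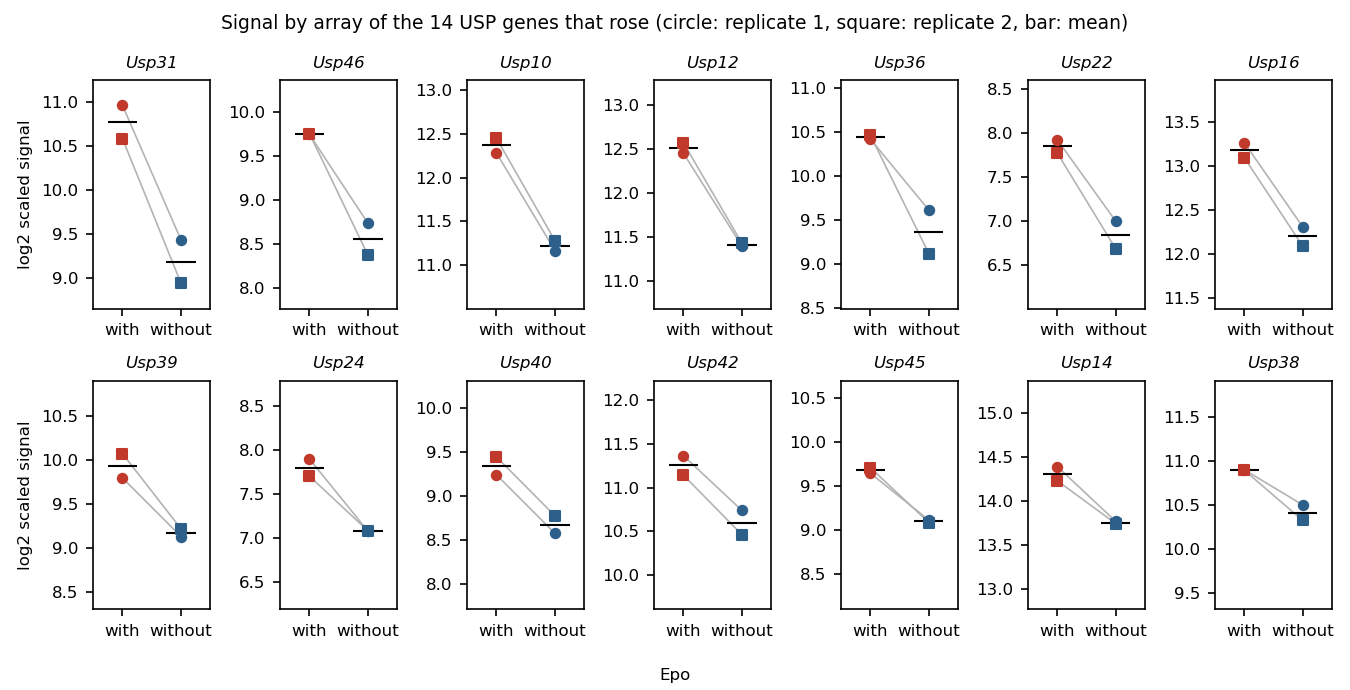
Log2 scaled signal of the 14 USP genes that rose, on each of the 2 arrays with Epo (red, left) and the 2 without Epo (blue, right), with lines joining the same replicate number and bars at the means. In each panel both red points lie above both blue points, and each vertical axis spans the same number of log2 units.

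Of 8 tested genes tied to signalling, 2 rose and none fell. These are 25% and 0%, against 13.1% and 14.3% of all genes. Usp31, linked to NF-kB signalling, showed the largest change of the 40 when the brightest probe stands for a gene, with log2 signals of 10.96 and 10.58 with Epo, against 9.43 and 8.94 without Epo (3.00-fold, log2 change 1.59 ± 0.23 SE, adjusted p 0.0141). Usp24, the large relative of Usp9x, had 7.90 and 7.70 with Epo, against 7.08 and 7.08 without Epo (1.65-fold, log2 change 0.72 ± 0.13 SE, adjusted p 0.021). Replicate 2 was the lower array of each group for Usp31. With the kept probes of a gene averaged, Usp36 changed more than Usp31 (1.67 and 1.48).

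Usp25, which is linked to cytokine receptor signalling, had 11.52 and 10.86 with Epo, against 10.71 and 9.99 without Epo. Its change of 0.84 ± 0.34 (SE) did not pass (adjusted p 0.136). The groups did not overlap, and replicate 2 was the lower array in both. Within each replicate number the difference was close to the same, 0.81 and 0.87, and with the replicate number as a block the adjusted p was 0.0135. The blocked fit called 16 of the 40 USP genes higher and 2 lower, against 19.9% and 23.2% of all genes: the 14 above with Usp25 and Usp7 (adjusted p 0.045) higher, and Usp19 (adjusted p 0.0492) and Usp21 (adjusted p 0.0169) lower. It had 1 residual degree of freedom.

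The other signalling genes gave smaller values, none called. Usp4 and Usp15, relatives linked to TGF-beta signalling, differed by 0.39 and 0.15, Usp34, linked to Wnt signalling, by 0.13, and Usp9x, a large X-linked enzyme whose substrates include MCL1, by 0.23. Usp2, which can deubiquitinate cyclin D1, had 10.88 and 10.48 with Epo, against 11.20 and 11.16 without Epo, with a change of -0.50 (adjusted p 0.0956).

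Of 6 tested genes for enzymes of endosomes and organelles, limma called 0 in either direction, with 0 higher and 1 lower at an unadjusted p under 0.05 (19.2% and 23.5% of all genes). Usp8, which acts on internalised receptors, differed by 0.22, and the relatives Usp20 and Usp33, which act on receptors in the endosomal pathway, by 0.20 and 0.16. Usp30, in the outer mitochondrial membrane, differed by 0.10 and Usp32, a membrane enzyme of the Golgi and endosomes, by -0.12. Usp19, which has a form anchored in the endoplasmic reticulum, had 11.36 and 11.35 with Epo, against 11.65 and 11.72 without Epo, with a change of -0.33 (adjusted p 0.0948). The Usp20 probe was printed in 10 spots on each array, whose log2 values had an SD of 0.0518 and 0.0731 with Epo and of 0.0609 and 0.0848 without Epo. That is technical spread within an array; against the spread between samples, its change of 0.20 ± 0.12 (SE) was not called (adjusted p 0.265).

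In ubiquitin recycling, Usp14, which trims ubiquitin from substrates at the proteasome, had 14.40 and 14.23 with Epo, against 13.77 and 13.75 without Epo (1.47-fold, log2 change 0.56 ± 0.12 SE, adjusted p 0.0347). Usp5, which takes apart free chains, differed by -0.11. Usp39, a splicing factor of the tri-snRNP, had 9.80 and 10.07 with Epo, against 9.13 and 9.22 without Epo (1.69-fold, log2 change 0.76 ± 0.15 SE, limma adjusted p 0.0253). Usp53 and Usp54, whose products have like that of Usp39 been classed as lacking protease activity, differed by 0.15 and 0.43 and were not called. Without Epo, the Usp53 probe was above background on 1 of 2 arrays.

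Of the genes placed in none of the groups above, Usp40 had 9.24 and 9.45 with Epo, against 8.58 and 8.78 without Epo (1.59-fold, log2 change 0.67 ± 0.15 SE, limma adjusted p 0.0335). Usp38 had 10.90 and 10.89 with Epo, against 10.50 and 10.32 without Epo (1.40-fold, log2 change 0.49 ± 0.12 SE, adjusted p 0.0492), the smallest rise called. Usp48 differed by -0.14, and Usp6nl by 0.12. Scaling on the probes detected on all arrays ended the calls of Usp38, Usp40, Usp42 and Usp14, and quantile normalization those of Usp38, Usp40 and Usp42, and averaging the probes of a gene those of Usp40 and Usp14.

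The probes that share a gene mostly gave the same direction. Of the 40 genes, 11 had several kept probes, 26 in all, and in 10 of the 11 all probes had the same sign, the exception being Usp48. The 3 Usp36 probes, in the order printed above, changed by 2.38, 1.08 and 1.55, and the 3 Usp31 probes by 1.65, 1.59 and 1.20, with all 6 called when each probe was tested alone. The Usp36 probe at 118121173 thus changed more than the others, with log2 signals of 9.60 and 9.72 with Epo, against 7.31 and 7.24 without Epo. Second probes of Usp24, Usp40 and Usp14 gave 0.47, 0.52 and 0.47 without a call (adjusted p 0.0841, 0.203 and 0.17), against 0.72, 0.67 and 0.56 for the probes that stand for those genes. Tested singly, 18 of 55 USP probes were called higher and 0 lower, against 13.0% of all kept probes called higher and 12.9% called lower.

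**Figure D3:**
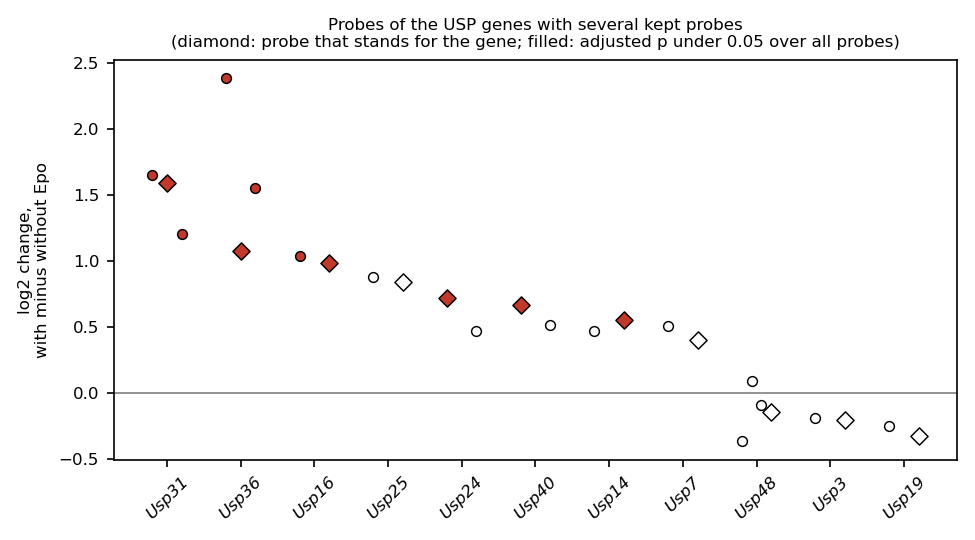
Log2 change with Epo minus without Epo of each kept probe of the 11 USP genes with several, diamonds marking the probe that stands for the gene and filled symbols an adjusted p under 0.05. All 3 probes of Usp31 and of Usp36 are filled, and the 4 Usp48 probes lie on both sides of 0, from -0.37 to 0.09.

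Closely related genes were set side by side in 10 pairs whose members were both tested. Both members rose in 3 pairs, Usp12 with Usp46, Usp36 with Usp42 and Usp16 with Usp45. Only Usp24 was called in its pair with Usp9x, and neither member was called in the other 6 pairs; the differences between members were not tested. The widest gap lay between Usp25 and Usp28, whose changes of 0.84 and -0.31 differed by 1.15, with 0.72 in replicate 1 and 1.59 in replicate 2. The array also carries 4 entries described in its annotation as similar to Usp1, Usp12, Usp44 and Usp48, and whether the probes of these genes also read them was not tested.

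Genes for USP partners gave 2 rises and no fall among 9 tested of 10 listed. These are 22.2% and 0%, against 13.1% and 14.3% of all genes. Gmps, the GMP synthase that binds Usp7, had 10.42 and 10.40 with Epo, against 9.79 and 9.47 without Epo (1.72-fold, adjusted p 0.0263), and G3bp1, the partner of Usp10, had 14.25 and 14.01 with Epo, against 13.59 and 13.32 without Epo (1.60-fold, adjusted p 0.0425). Wdr48 and Wdr20, the partners of Usp12 and Usp46, differed by -0.16 (adjusted p 0.635) and 0.10 (adjusted p 0.816), and the groups overlapped for both.

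Deubiquitinases of other families gave 6 rises and 1 fall among 30 tested genes, or 20% and 3.33%, with a median change of 0.13. For all genes tested, the shares were 13.1% and 14.3% and the median change was -0.06. The OTU family held 4 of the rises among 12 tested, or 33.3%, against 13.1% of all genes. Otud4 rose 2.09-fold, Otud6b 2.03-fold, Otud3 1.46-fold and Otulin, which removes linear ubiquitin chains, 1.44-fold (limma adjusted p 0.021, 0.0248, 0.0331 and 0.0443). Stambpl1, a JAMM metalloprotease, rose 3.36-fold (adjusted p 0.0107) and Josd1, a Josephin enzyme, 1.74-fold (adjusted p 0.0147), while Mindy1 fell, with a log2 change of -0.87 (adjusted p 0.0112). None of 3 tested UCH genes was called, and Cyld, which removes linear and lysine-63 chains, differed by -0.42 (adjusted p 0.063). Whether the share called differs between the USP genes and the other families was not tested.

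Among 8 proteases of the ubiquitin-like proteins SUMO and NEDD8, 2 rose and 1 fell. These are 25% and 12.5%, against 13.1% and 14.3% of all genes. Senp5 rose 2.43-fold (limma adjusted p 0.0102) and Uspl1, a SUMO protease with a USP-like fold, 1.95-fold (limma adjusted p 0.0101). Senp7 fell with a log2 change of -0.78 (limma adjusted p 0.0195). Of 6 ubiquitin and E1 genes, 0 were called by limma, with 1 higher and 3 lower at an unadjusted p under 0.05 (19.2% and 23.5% of all genes). The E1 enzyme gene Uba6 differed by 0.78 (adjusted p 0.0547).

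**Figure D4:**
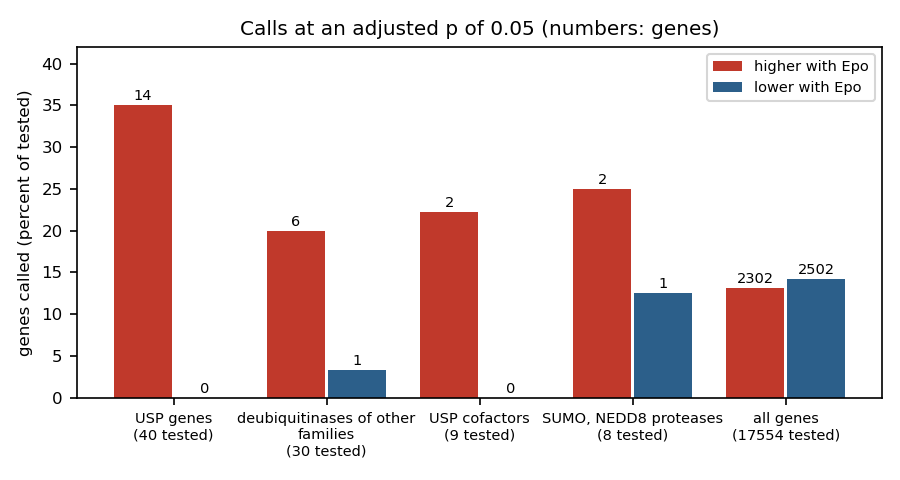
Percent of tested genes called higher (red, left) and lower (blue, right) with Epo against without Epo, with the number of genes above each bar, for the USP genes, the deubiquitinases of other families, USP cofactors, SUMO and NEDD8 proteases, and all genes. Bars stand at 35% and 0% for the USP genes and at 13.1% and 14.3% for all genes.

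The response of the cells to Epo could be read from genes known to be switched on by the receptor. All 6 rose, Cish 10.7-fold, Socs1 97.3-fold, Socs2 2.93-fold, Pim1 13.0-fold, Myc 10.4-fold and Egr1 46.3-fold (limma adjusted p 0.00313 to 0.00883). That is 100%, against 13.1% of all genes called higher. The 6 genes, like the other lists, were chosen with earlier results of these data known. Without Epo, Egr1 passed the background mark on 1 of 2 arrays, so its fold is uncertain. The arrays correlated at 0.995 with Epo and at 0.993 without Epo across genes, which are not independent replicates, and at 0.971 to 0.976 between groups. The 75th percentile of intensity was 347 and 454 with Epo, against 224 and 250 without Epo, and the share of probes above background was 42.7% and 47.9% with Epo, against 41.5% and 41.3% without Epo. Without any scaling the median of all genes moved to 0.68, 46.9% of all genes were called higher, and 28 of the 40 USP genes were. In bulk RNA, a change in the number of cells of a type cannot be told apart from a change per cell.

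Of 9 markers of myeloid progenitors, 8 were above background, Kit being the exception, and none of the 8 was called. Without Epo, Cd34 was above background on 1 of 2 arrays. The summed signal of the 8 was 127135 and 142795 with Epo, against 150287 and 159620 without Epo. Ctsg weighs most in that sum. Its log2 signals were 16.40 and 16.57 with Epo, against 16.72 and 16.75 without Epo. The erythroid markers Hbb-b1, Alas2 and Slc4a1 were not well above background in either group. The erythroid markers Klf1, Hba-a1 and Epb42 were above background on each array of each group. These 3 were tested, with log2 changes of -0.096, -0.19 and -0.49, and none was called (limma adjusted p 0.776, 0.341 and 0.0559). Among markers of other cells, 2 of 7 lymphoid genes were tested and both fell, Cd3e and Cd79b, with a summed signal of 817 and 891 with Epo, against 1498 and 1639 without Epo. Of 3 tested macrophage genes, 1 rose (Adgre1, log2 change 1.03) and 1 fell (Csf1r, -0.79). Their summed signal was 4442 and 4762 with Epo, against 3639 and 3555 without Epo. Of 3 tested stromal genes, 1 rose (Pecam1, 0.75) and 2 fell (Pdgfrb, -2.45, and Cdh5, -0.54). Their summed signal was 1374 and 1566 with Epo, against 1165 and 1096 without Epo. Among all genes tested, 13.1% were called higher and 14.3% lower. With so few genes in each marker list, these counts describe the named genes only. The lymphoid genes Cd3g, Cd79a, Ms4a1 and Cd8a and the collagen genes Col1a1, Col1a2 and Col3a1 were not well above background in either group. The part of these markers in the USP values was not tested.

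The remaining 10 of the 50 USP genes had no kept probe: Usp13, Usp26, Usp27x, Usp29, Usp35, Usp43, Usp49, Usp50, Usp51 and Usp9y. Of these, 9 were not well above background on any array. Usp27x and Usp51 are relatives of Usp22, Usp13 of Usp5 and Usp35 of Usp38, so for each of these a relative was measured.

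Promoter sequence from RefSeq in the build GRCm38.p6, 250 bases before to 50 after the gene start, was matched for 30 of the 40 genes in 31 promoters. The palindrome CACGTG, the E-box that MYC family proteins bind, occurred in 5 of the 31 promoters (16.1%), those of Usp16, Usp31, Usp32, Usp4 and Usp6nl, against 7.15% of 32851 promoters. It occurred in 2 of the 10 matched promoters of genes that rose (20%) and in 3 of the 21 of genes not called (14.3%). The STAT motif TTCNNNGAA, read on both strands like the first, occurred in 0 of 31, against 8.30% of all. Only the 2 promoters of risen genes that hold CACGTG are printed, with the motif in capitals. Myc also rose with Epo, and whether it acts on these genes was not tested. In Usp16 it starts 77 bases before the gene start, on chr16:87454735-87455034, plus strand, and in Usp31 it starts 22 bases before, on chr7:121707393-121707692, minus strand. A match describes these letters only.
Usp16 promoter: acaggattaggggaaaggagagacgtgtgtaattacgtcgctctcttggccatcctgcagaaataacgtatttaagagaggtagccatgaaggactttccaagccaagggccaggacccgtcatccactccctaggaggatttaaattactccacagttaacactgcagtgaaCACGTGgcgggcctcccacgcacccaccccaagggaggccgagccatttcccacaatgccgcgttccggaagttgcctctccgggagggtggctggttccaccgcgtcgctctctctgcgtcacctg
Usp31 promoter: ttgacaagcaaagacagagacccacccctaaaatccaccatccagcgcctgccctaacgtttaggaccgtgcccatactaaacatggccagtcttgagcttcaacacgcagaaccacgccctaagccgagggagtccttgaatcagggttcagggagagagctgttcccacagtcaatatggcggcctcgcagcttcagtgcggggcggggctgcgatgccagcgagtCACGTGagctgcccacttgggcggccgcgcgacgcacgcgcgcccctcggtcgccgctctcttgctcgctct

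The same counts under each processing show how far the rises depend on it. The USP share called higher was 40% with normexp background correction, 27.5% with quantile normalization, 25% with scaling on detected probes and 70% without scaling, against 15.8%, 12.6%, 10.7% and 46.9% of all genes. The share was 0% when dim probes were not removed, where limma called 0 of all genes too. At an unadjusted limma p under 0.05 in that setting, 13 of the 40 USP genes were higher and 1 lower. Of all 36310 genes in that setting, 7148 were under 0.05 in either direction. Those 36310 include dim genes, while the 40 had passed the filter.

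**Figure D5:**
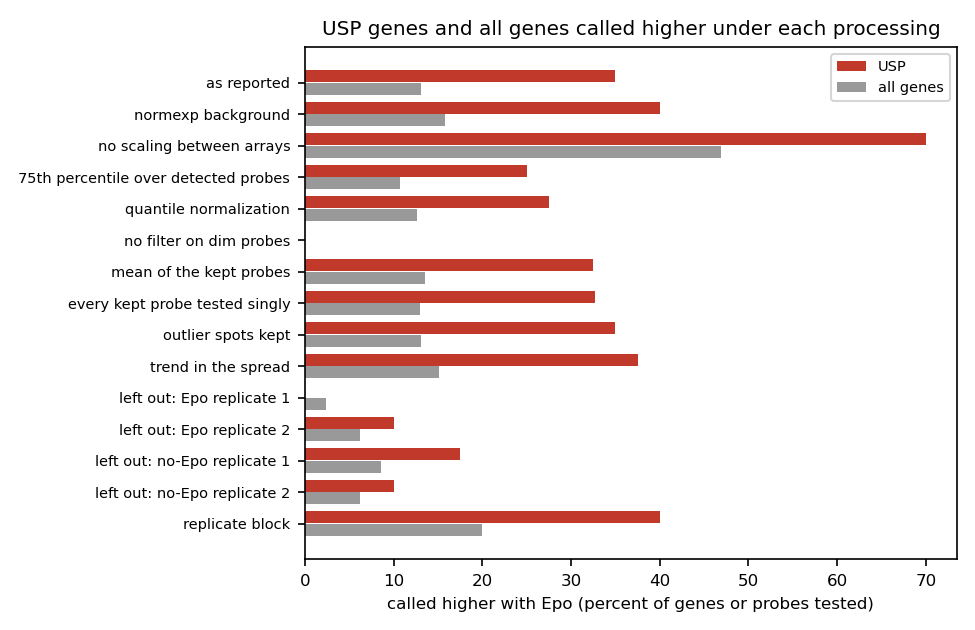
Percent called higher with Epo among USP genes (red, upper bar) and all genes (grey, lower bar) under each processing, including each array left out in turn. The USP bar is 35% as reported, 0% without replicate 1 with Epo and without the filter on dim probes, and 70% without scaling.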

How the data were processed

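Total RNA, 200 ng per sample, was labelled with Cy3 from an oligo-dT primer and hybridised to 1-colour Agilent mouse arrays, 2 with Epo and 2 without Epo, per the labels' protocols. All 4 arrays lay on 1 slide with 1 scan, so neither could differ between groups. The deposited files hold scanner intensity values from Feature Extraction 10.1.1.1 for 62976 spots, background-corrected by the authors' scanner software and not scaled between arrays, per the file headers. The submitters' processing notes name limma, with no version or role.

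From these, processed intensities were put on the log2 scale and each array's 75th percentile over 59305 non-control spots was taken off, and the mean percentile of the 4 arrays was restored. Spots marked as outliers were dropped (9 probes removed), and 0 spots were saturated. Spots of a probe were averaged, and a probe counted as above background on an array when more than 50% of its spots did. Of 55681 probes, 23734 were kept, and the brightest kept probe on average stood for its gene. Names came from the array, updated through a RefSeq table: an accession matched 26413 probes, a symbol 3859 and a synonym 735, while 24674 stayed as the file names them. Groups were compared with limma 3.58.1 under R 4.3.3 (two-sided tests from lmFit and eBayes, Benjamini-Hochberg over 17554 genes, threshold 0.05), with 2 residual and 4.57 total degrees of freedom. The number of arrays limits the precision.

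The members, lists and rule for named genes were chosen with earlier results of these data known. The rule names every tested USP gene, with values by sample for those past the threshold, and from each other list up to 3 rises and 3 falls, or, with no gene past the threshold, the 2 smallest p-values; some genes of these lists are not reported here. The design text gives 2 independent experiments on different passages, and replicate numbers were read as those experiments. Across genes, the deviations of same-numbered samples from the group means correlated at 0.386. P-values measure the spread between these samples. Alternatives covered background correction, scaling, the filter on dim probes, the choice of probe, outlier spots, a trend in the spread, each array left out and the replicate block.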

Additional observations from a re-analysis of the deposited data

Results flagged for a closer look

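Signal appeared in 2 USP probes that the comparisons do not use, each well above background on replicate 2 with Epo alone. The Usp49 probe had a processed intensity of 90.8 there and of 18.4 on replicate 1 with Epo, against 16.7 and 20.4 without Epo. A second Usp20 probe had 22.7 there and 15.3 on replicate 1 with Epo, against 19.2 and 4.81 without Epo. These intensities are not scaled between arrays: on the scaled log2 scale the Usp20 probe had 3.94 on that array and 3.75 on replicate 1 with Epo, against 4.72 and 2.56 without Epo, so an array without Epo was higher, and the Usp49 probe had 5.94 on that array and 4.02 on replicate 1 with Epo, against 4.52 and 4.64 without Epo. That array also had the highest share of probes above background, 47.9%, and the part of this in the 2 signals was not tested.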

How the results depend on the processing

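The 14 rises kept their call under normexp, no scaling, kept outlier spots, a trend in the spread and the replicate block; no scaling adds the same amount to every gene's change, so it cannot turn a rise round. USP genes called higher numbered 28 without scaling and 0 without the filter on dim probes, and 0 to 7 with an array left out. Those called lower numbered 2 with normexp, 4 with scaling on detected probes, 1 with a trend, 2 with the replicate block and 0 to 1 with an array left out. The median USP change was 0.95 without scaling, 0.082 with scaling on detected probes and 0.39 over single probes, and 0.17 to 0.40 with an array left out. All genes called higher and lower numbered 8230 and 364 without scaling, 0 and 0 without the filter, 3498 and 4069 with the replicate block, and 460 to 1558 and 198 to 1771 with an array left out. Other deubiquitinases called higher numbered 20 without scaling, 0 without the filter, 10 with the replicate block and 0 to 4 with an array left out. Those called lower numbered 3 with normexp, 0 without scaling, 4 with scaling on detected probes, 3 with quantile normalization, 0 without the filter, 3 with a trend, 3 with the replicate block and 0 to 1 with an array left out.

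Genes that were not called changed sign as follows. Without scaling, where the median of all genes was 0.68, Usp5, Usp32, Usp48, Usp1, Usp3, Usp47, Usp44, Usp28, Usp19, Usp2 and Usp21 gave 0.63, 0.63, 0.60, 0.59, 0.54, 0.48, 0.48, 0.43, 0.42, 0.25 and 0.11. With normexp, Usp54, Usp8, Usp53, Usp6nl, Usp11 and Usp5 gave -0.057, -0.086, -0.34, -0.081, -0.11 and 0.018. With scaling on detected probes, Usp6nl, Usp11 and Usp30 gave -0.00663, -0.0101 and -0.0208. With an array left out, Usp53 ran from -0.36 to 0.67, Usp5 from -0.25 to 0.026, Usp34 from -0.014 to 0.28, Usp11 from -0.025 to 0.26, Usp28 from -0.81 to 0.18, Usp32 from -0.29 to 0.053 and Usp47 from -0.54 to 0.00845. Without scaling, and with scaling on detected probes, every gene's change moved by the same amount. The USP median therefore stayed 0.27 above that of all genes in both settings. The cause of the sign changes in the other settings was not tested. Signal near background limits the dim genes, among them Usp53, and calls rest on 2 arrays a group.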
